A study of Mus musculus and Acomys cahirinus with 2 samples.

Results

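Krt79-positive upper hair follicle cells are the cells of this ear skin series that carried the keratin Krt79 at a set level and held little RNA of lipid-making genes. They were chosen by measured values: a cell was selected on having at least 5 Krt79 UMIs (unique molecular identifiers, each marking 1 captured transcript), at least 5 Krt79 UMIs per 10000, and fewer than 10 UMIs per 10000 of Plin2, Fasn and Acly together. Of 12461 cells in all, 871 met this rule: 328 of 7675 in the Mus library, 4.27% with an exact binomial 95% interval of 3.83 to 4.75, and 543 of 4786 in the Acomys library, 11.3% with an interval of 10.5 to 12.3. The skin came from adult ears of Mus musculus, the house mouse, and of Acomys cahirinus, a spiny mouse, each with 1 Chromium 10x library labelled day 0. The series title calls the ears injured and names no other treatment or genotype. With 1 library per species there is no replicate, so no test was made. Species, animal, library and gene annotation cannot be told apart, and every interval here covers counting error only.

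The follicles of haired skin have an upper part, which joins the surface epidermis through a funnel called the infundibulum and carries the duct of the sebaceous gland. Krt79 marks cells of that funnel and duct, which line the hair canal and are renewed from stem cells of the junctional zone that express Lrig1 and Plet1. Gata6 is a transcription factor of the same duct lineage, and Krt17 is a keratin of follicle epithelium. These cells face the outside through an open canal, and enzymes that break down foreign compounds, antimicrobial peptides and proteases that loosen dead cells are known from this region.

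The cells were sequenced to a median of 8945 UMIs and 2352 genes in Mus and 7813 UMIs and 1966 genes in Acomys, beside 11385 and 7532 UMIs in all other cells of the same libraries. The libraries shared 34 cell barcodes, and 0 of these were Krt79-positive follicle cells in both. A doublet score marked 29 of the Mus and 33 of the Acomys cells, 8.84% and 6.08%, against 6.02% and 3.54% of all other cells; these cells stayed in. Free RNA in the droplets carried Krt79: barcodes of at most 10 UMIs held 4.20 Krt79 UMIs per 10000 in Mus and 7.18 in Acomys. In cells with endothelial, immune, fibroblast or melanocyte markers, 23.6% of the Mus cells (median depth 4181 UMIs) and 54.5% of the Acomys cells (3629 UMIs) had a Krt79 UMI. A single Krt79 UMI therefore does not mark a cell here.

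The level of Krt79 itself was set by the rule and is given as a description. It ran from 5.04 to 277 UMIs per 10000 in Mus, with a median of 46.7, and from 5.04 to 399 in Acomys, with a median of 37.9. Between 5 and 7.5 per 10000 there were 44 Mus and 47 Acomys cells of the set, and 49 Mus and 81 Acomys cells with at least 5 Krt79 UMIs lay under 5 per 10000, outside it. Another 87 Mus and 93 Acomys cells met the Krt79 limits but exceeded the lipid limit. When every cell was thinned to the UMI minimum of the rule, 228 Mus and 376 Acomys cells still met the rule, 2.97% and 7.88%.

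**Figure D1:**
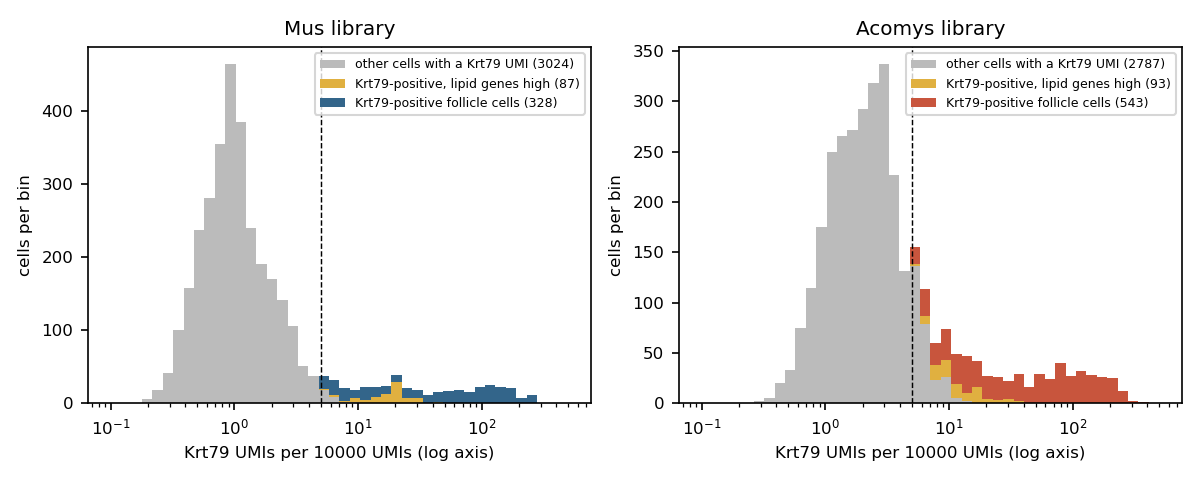
Histograms of Krt79 UMIs per 10000 UMIs (log axis) in cells with at least 1 Krt79 UMI, 1 panel per library, with cells per bin on the vertical axis. The dashed line stands at 5 per 10000; grey cells to its right had fewer than 5 Krt79 UMIs. The coloured Krt79-positive follicle cells, 328 in Mus and 543 in Acomys, spread over a broad upper range, and the bulk of the other cells lies below the line.

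Of the 4 genes given as markers of these cells, Krt79 is part of the rule and the values of the other 3 are described. These markers were given with earlier results of these data known, so their values are no independent check of the name. Krt17 stood at 5634 CPM (UMIs per 1000000 UMIs of the 15710 gene symbols that both libraries list) in Mus Krt79-positive follicle cells and 323 CPM in all other Mus cells, 17.5-fold higher (17.1 to 17.9). In Acomys it stood at 17926 against 2236 CPM, 8.02-fold higher (7.92 to 8.11). Both libraries thus had Krt17 far above their own background. It was found in 72.0% of the Mus and 99.8% of the Acomys cells, and in 28.3% and 87.1% of the non-epithelial cells, so its presence alone does not separate the classes in Acomys. After thinning to equal depth it was found in 52.1% of these Mus cells against 18.9% of others, and in 97.6% against 86.0% in Acomys.

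The other 2 markers divided by library. Defb6, a beta-defensin, reached 13821 CPM in Mus Krt79-positive follicle cells against 122 CPM in other Mus cells, 113-fold higher (111 to 116), and 89.9% of these cells had a UMI of it, against 35.3% of the non-epithelial cells. At equal depth the share was 78.4% against 15% of other Mus cells. The Acomys gene list has no Defb6 symbol, so nothing is known of it there. Cyp2a5, a cytochrome P450, showed the reverse: 3 UMIs in the 328 Mus cells, a ratio of 1.64 to other cells with an interval of 0.326 to 5.08. In Acomys it had 937 UMIs, 300.1 CPM against 7.52, which is 39.9-fold higher (34.1 to 47.0). It was present in 34.6% of the Acomys cells and in 0 of the non-epithelial ones, and the Acomys cells above the lipid limit had none. At equal depth it was seen in 23.0% of these cells and 1.44% of all other Acomys cells. Only in the Acomys library was Cyp2a5 thus clearly above other cells. In Mus the data do not bear out its use as a marker.

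Genes at least 2-fold higher in Krt79-positive follicle cells than in all other cells numbered 305 of 7030 compared in Mus, 4.34%, and 107 of 5339 in Acomys, 2.0%. Both libraries had 4761 genes in common, and 41 of them, 0.861%, were at least 2-fold higher in both. Krt17 led this set, followed by Cst6, a secreted inhibitor of cysteine proteases in epithelia. Cst6 stood at 66690 CPM in the Mus cells against 1715 CPM in others, 38.9-fold higher (38.6 to 39.2), and at 13032 against 1742 CPM in Acomys, 7.48-fold (7.38 to 7.58). The summed level outside these cells was nearly the same in the 2 libraries, and the summed level inside was 5.12-fold lower in Acomys (5.06 to 5.17). Cell by cell the rise was smaller. The median Cst6 level was 45.2 UMIs per 10000 in these Mus cells against 4.66 in other Mus cells. In Acomys the medians were 11.4 and 4.85, and the cell of most Cst6 held 2532 of the 40690 UMIs. The summed ratios of Cst6 thus rest largely on a part of the cells.

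Akr1c18, an aldo-keto reductase that handles steroids and other carbonyl compounds, came next. It reached 219 CPM against 9.82 in Mus, 22.3-fold (19.7 to 25.2), and 3775 against 532 CPM in Acomys, 7.10-fold (6.93 to 7.28). Lbh, a transcription cofactor, was 22.4-fold higher in Mus (16.8 to 29.8) and 7.05-fold higher in Acomys (6.18 to 8.05). Egr2, a zinc finger transcription factor, was 12.1-fold (10.4 to 14) and 4.07-fold higher (3.61 to 4.60), and Irx3, a homeobox factor, 6.24-fold (5.27 to 7.37) and 4.32-fold (3.79 to 4.93). The ligand Efnb2, which signals between neighbouring cells through Eph receptors, was 5.86-fold higher in Mus (5.09 to 6.72) and 4.59-fold higher in Acomys (3.79 to 5.56). Rassf10, of the Ras association domain family, and Bace2, a membrane protease, were higher too, 8.48-fold and 5.51-fold in Mus and 4.19-fold and 3.18-fold in Acomys. These factors were found in a part of the cells: a UMI of Irx3 was seen in 36.6% of the Mus and 39.8% of the Acomys cells, and of Egr2 in 43.9% and 44.8%. In the Krt79-positive cells above the lipid limit, Akr1c18 stood at 194 CPM in Mus and 3708 CPM in Acomys, near its level here. Efnb2 stood at 152 and 13.1 CPM there, against 112 and 55.7 CPM in the follicle cells. Rassf10 stood at 117 and 26.2 CPM against 137 and 67.6 CPM. Lbh, Egr2, Irx3 and Bace2 were lower there than in the follicle cells in both libraries.

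**Figure D2:**
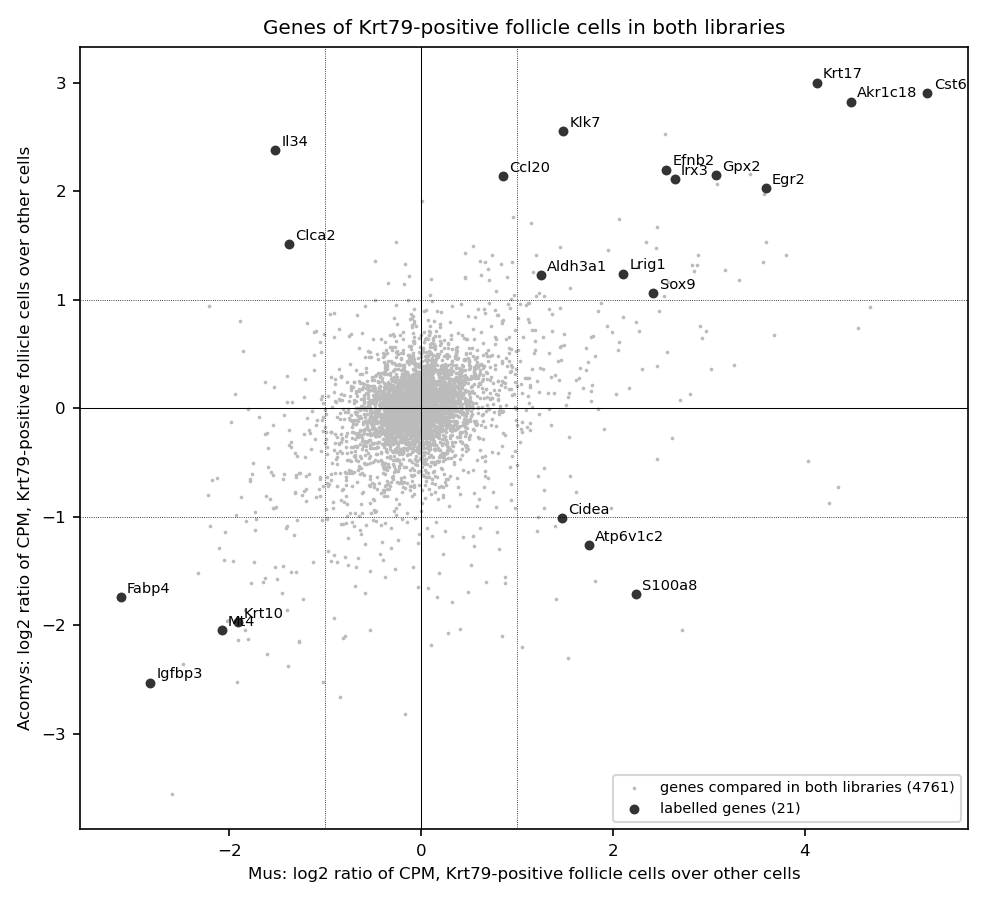
Each point is 1 of the 4761 genes compared in both libraries, at the log2 ratio of its CPM in Krt79-positive follicle cells over all other cells in Mus (horizontal) and in Acomys (vertical); dotted lines mark 2-fold. Krt17, Cst6 and Akr1c18 lie at the upper right, Igfbp3 and Fabp4 at the lower left, and Il34 and Clca2 at the upper left, higher in Acomys and lower in Mus.

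Genes at least 2-fold lower numbered 268 in Mus, 3.81%, and 175 in Acomys, 3.28%, with 45 lower in both, 0.945% of those in common. Krt10, the main keratin of the suprabasal epidermis, stood at 6981 CPM in Mus Krt79-positive follicle cells and 26314 in others, 3.77-fold lower (3.71 to 3.83), and at 12726 against 49972 CPM in Acomys, 3.93-fold lower (3.89 to 3.97). Igfbp3, which binds insulin-like growth factors, was 7.14-fold lower in Mus (5.76 to 8.97) and 5.78-fold lower in Acomys (5.06 to 6.63). The Wnt ligand Wnt3 was 5.69-fold (3.87 to 8.72) and 5.21-fold lower (3.71 to 7.55). Mt4, a metallothionein of stratified epithelia, Krt24 and Serpinb12 were lower by 4.23-fold, 3.79-fold and 4.04-fold in Mus and by 4.15-fold, 5.75-fold and 3.87-fold in Acomys. The nuclear receptor gene Rora was 3.59-fold and 4.14-fold lower. The intervals of the 2 libraries overlapped for Igfbp3, Wnt3, Mt4, Serpinb12 and Rora. They did not for Krt10, although its ratios of 3.77-fold and 3.93-fold were close. Nor did they for Krt24, which was 3.39 to 4.25-fold lower in Mus and 4.93 to 6.74-fold lower in Acomys. Overlap is no test between libraries here, because the intervals leave out the spread between cells and animals. At least 50% of the Krt10 UMIs lay in 17 Mus and 33 Acomys cells of the set. For Krt24 these were 6 and 15 cells. Fabp4, a fatty acid binding protein, was 8.91-fold lower in Mus (6.27 to 13.1) and 3.34-fold in Acomys (3.01 to 3.72). Cytl1 was 3.79-fold and 4.44-fold lower, and Gcat, a threonine-degrading enzyme, 3.43-fold and 3.06-fold.

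Markers of the junctional zone, isthmus and duct other than those given were read from a list of 18 genes. In Mus 10 of 15 compared were at least 2-fold higher and 1 was lower, with a median log2 ratio of 2.42 beside -0.02 over all genes; in Acomys 7 of 13 were higher and 2 lower, with a median of 1.06 beside 0.01. Over all genes compared, 4.34% were higher and 3.81% lower in Mus and 2.0% and 3.28% in Acomys, and the counts of every list are set against these shares. Sox9, a follicle transcription factor, stood at 194 against 36.2 CPM in Mus and 203 against 97.4 CPM in Acomys, 5.35-fold and 2.09-fold higher. Lrig1, a receptor inhibitor that marks junctional zone stem cells, was 4.29-fold (3.49 to 5.24) and 2.35-fold higher (1.75 to 3.13). The protease gene Klk10 was 13.9-fold and 2.66-fold higher, but 3 of the 328 Mus cells held at least 50% of its Mus UMIs and 5 of the 543 Acomys cells as much of its Acomys UMIs.

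Plet1 and Gata6, both known from the duct lineage, were abundant in Mus alone. Plet1 stood at 595 CPM in the Mus cells against 55.9 in others, 10.6-fold higher (9.98 to 11.3), with a UMI in 75.6% of the cells. In Acomys it stood at 4.80 against 1.88 CPM, 2.56-fold (1.33 to 4.66), with a UMI in 2.76% of the cells. Gata6 was at 96.1 against 4.27 CPM in Mus, 22.5-fold (18.7 to 27.1), and at 6.73 against 1.80 CPM in Acomys, 3.74-fold (2.11 to 6.43). The direction was therefore the same in both libraries, and the levels in Acomys were low throughout. In Mus the pair went together: of 248 cells with a Plet1 UMI, 122 (49.2%, 42.8 to 55.6) also had Gata6, against 9 of 80 cells without Plet1 (11.3%, 5.28 to 20.3), at median depths of 8630 and 9756 UMIs. The median Krt79 level of those 2 sets was 64.3 and 11.8 per 10000.

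**Figure D3:**
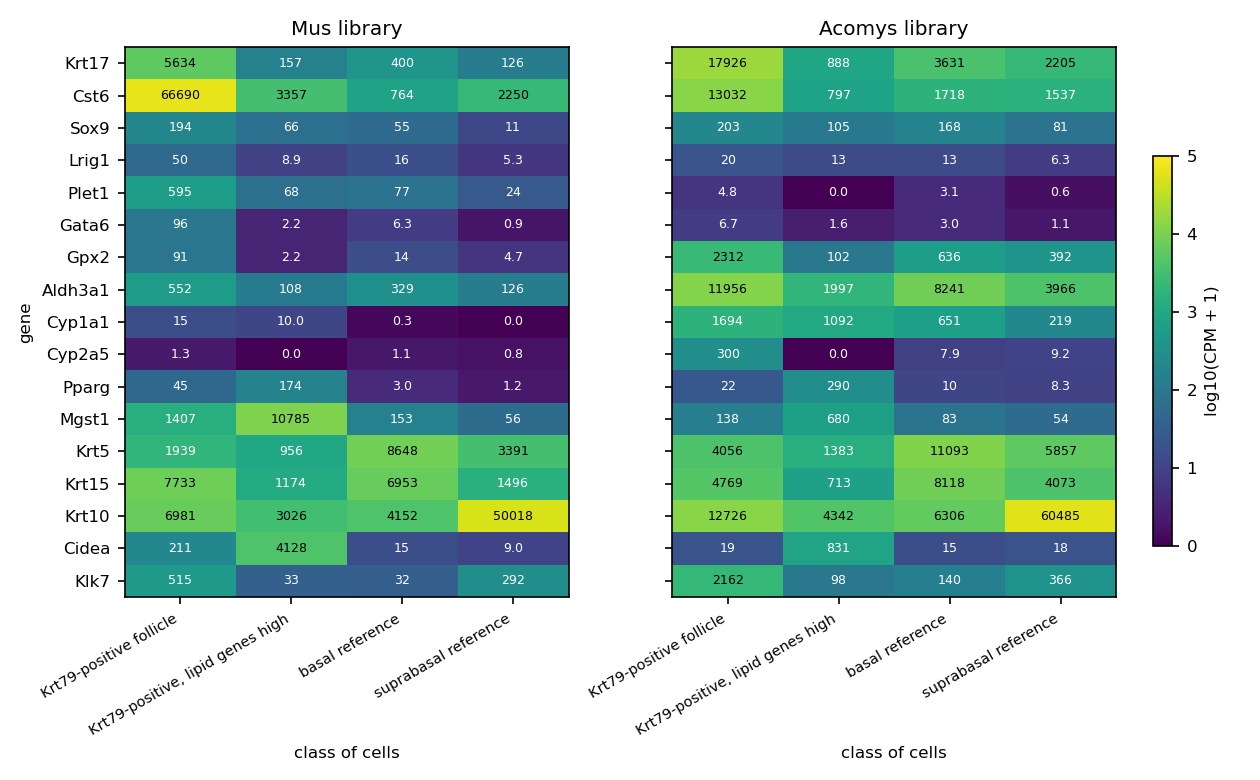
CPM of 17 genes (rows) in 4 classes of cells (columns), 1 panel per library, with colour on a log10(CPM + 1) scale and the CPM printed in each field. Krt17 and Cst6 are highest in the Krt79-positive follicle cells of both libraries, Plet1 and Gata6 in those of Mus, Cyp2a5 in those of Acomys, and Pparg and Mgst1 in the Krt79-positive cells with high lipid genes.

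Genes of cytochrome P450 and detoxification enzymes were read from a list of 25. In Mus 8 of 14 compared were at least 2-fold higher and 0 lower, with a median log2 ratio of 1.08 beside -0.02 over all genes. In Acomys 9 of 17 were higher and 1, Gsta4, was lower, with a median of 1.21 beside 0.01. The P450 gene Cyp1a1, a classic target of the aryl hydrocarbon receptor, had 34 UMIs in 13 Mus cells, 14.9 against 0.368 CPM, which is 40.5-fold (23.0 to 72.7) but too low on average to count among the 14. In Acomys it had 1694 against 403 CPM, 4.20-fold higher (4.06 to 4.34), with a UMI in 87.7% of the cells. Cyp1b1, of the same family, was 11.8-fold (9.01 to 15.4) and 2.54-fold higher (1.97 to 3.24). Both libraries thus had these P450 genes raised over their own other cells, from very different levels.

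Aldh3a1, an aldehyde dehydrogenase, stood at 552 against 233 CPM in Mus, 2.37-fold (2.23 to 2.51), and at 11956 against 5113 CPM in Acomys, 2.34-fold (2.31 to 2.37). The glutathione peroxidase gene Gpx2 was at 90.8 against 10.8 CPM in Mus, 8.4-fold (7.15 to 9.84), and at 2312 against 522 CPM in Acomys, 4.43-fold (4.30 to 4.56). Nqo1, a quinone reductase, was 3.86-fold and 2.76-fold higher, Gsta3, a glutathione transferase, 5.45-fold and 2.78-fold, and the carboxylesterase gene Ces1d 5.08-fold and 2.89-fold. For Ces1d the Krt79-positive cells above the lipid limit were higher still, 475 CPM in Mus and 1169 CPM in Acomys. Gsta3 was also higher there, 132 against 120 CPM in Mus and 2208 against 1690 CPM in Acomys. Gpx2 was lower there, at 2.22 and 102 CPM. In Mus, Gsta3 was carried by cells of low Krt79, 254 CPM in the lowest 110 cells by Krt79 and 6.24 CPM in the highest 109. With a Krt79 minimum of 20 per 10000 it was lower than in other Mus cells, with a log2 ratio of -0.35.

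Defence genes were raised in part. Of 8 antimicrobial and alarmin genes compared in Mus 5 were higher and 1 lower, and of 7 in Acomys 3 were higher and 3 lower. Without a single Lor-rich Mus cell, described with the granular genes, 4 were higher and 2 lower in Mus and the median log2 ratio went from 1.65 to 0.93. With a Krt79 minimum of 20 per 10000, 2 were higher and 2 lower in Mus, median 0.26, and 2 and 3 in Acomys. Defb1, another beta-defensin, stood at 520 against 87.6 CPM in Mus, 5.94-fold (5.57 to 6.33), and at 179 against 79.7 CPM in Acomys, 2.25-fold (2.04 to 2.47). In Mus a Defb1 UMI was seen in 71.0% of these cells and 35.1% of others. In Acomys it was seen in 22.5% of these cells and 24.1% of others, and at equal depth in 13.6% and 11.9%. There 14 cells held at least 50% of the Defb1 UMIs, so the Acomys ratio rests on few cells. Lcn2, a protein that withholds iron from bacteria, was 9.96-fold higher in Mus (8.63 to 11.5) and 2.27-fold in Acomys (1.85 to 2.76). At least 50% of its UMIs lay in 7 Mus and 27 Acomys cells. Slpi, a secreted protease inhibitor, was 10.7-fold (9.52 to 12.1) and 4.46-fold higher (3.92 to 5.06), with at least 50% of its UMIs in 4 Mus and 2 Acomys cells. The alarmin gene Il33 was lower, by 4.77-fold in Mus (3.99 to 5.76) and by 2.61-fold in Acomys (1.56 to 4.72).

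Of the chemokines, Ccl20, which draws CCR6-bearing lymphocytes and dendritic cells, reached 836 CPM in the Acomys cells against 190 in others, 4.41-fold (4.20 to 4.63), with a UMI in 45.7% of the cells and in 12.9% of the shallower non-epithelial cells. After thinning it was seen in 29.1% of the cells and 15.3% of all others. In Mus it had 70 UMIs in 11 cells, 30.7 against 17.2 CPM. Il34, a ligand of the macrophage receptor CSF1R, lay in opposite directions: 31.1 against 90.1 CPM in Mus, 2.89-fold lower (2.29 to 3.71), and 234 against 44.9 CPM in Acomys, 5.22-fold higher (4.74 to 5.73). Cxcl12 was 4.58-fold higher in Mus (3.67 to 5.67) and had 0 UMIs in the Acomys cells. Cxcl14 was lower in both, 61.4 against 145 CPM and 24.7 against 83.9 CPM.

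Of the basal layer genes, 7 of 13 compared were at least 2-fold lower and 0 higher in Mus, median log2 ratio -1.16, and in Acomys 1 of 11, Lamb3, was lower and 0 higher, median -0.57. Krt5, the basal keratin, stood at 1939 against 5643 CPM in Mus and 4056 against 6202 CPM in Acomys. Col17a1, a hemidesmosome collagen, stood at 155 against 465 CPM in Mus and 158 against 282 CPM in Acomys. Krt15 did not share this: at 7733 against 4098 CPM in Mus and 4769 against 4227 CPM in Acomys it was not lower in either. Of the lower follicle and bulge genes, 1 of 10 was higher and 2 lower in Mus, median 0.43, and 0 of 8 higher and 3 lower in Acomys, median -0.74. Barx2, a homeobox factor, was the one higher, 5.57-fold (4.91 to 6.30), and Postn, a matrix protein, was lower in both. Lgr5 and Cd34 were too low on average to be compared in either library.

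Genes of the granular and cornified layers differed between the libraries, and a single Mus cell carried much of that. In Acomys 9 of 15 compared were at least 2-fold lower and 1, the desquamation protease gene Klk7, was higher, median log2 ratio -1.05. In Mus 3 of 16 were higher and 1 lower, median 0.06. One Mus cell of 43157 UMIs, with 35 Krt79 UMIs and not marked as a doublet, held 5254 Lor UMIs, 78.6% of the Lor UMIs of all 328 cells; the next cell had 100. It also held 72.8% of the Crct1, 72.8% of the Asprv1, 84.4% of the Il18 and 87.9% of the Psors1c2 UMIs. Without it, 1 of the 16 Mus genes was higher and 4 were lower, median -0.64, and Lor stood at 635 CPM, 3.48-fold below other cells. Klk7 did not depend on that 1 cell: in Mus it was at 515 against 185 CPM with it and at 445 CPM without it. In Acomys it was at 2162 against 368 CPM, 5.87-fold (5.69 to 6.06). At least 50% of the Klk7 UMIs lay in 10 Mus and 55 Acomys cells of the set, so the Mus ratio rests on few cells.

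Of the sebaceous genes outside the rule, 5 of 16 compared were higher and 1 lower in Mus, median log2 ratio 0.36, and 0 of 9 were higher and 3 lower in Acomys, median -0.66. Pparg, the nuclear receptor that drives sebocyte formation, stood at 44.7 against 5.54 CPM in Mus, 8.08-fold (6.40 to 10.1), and at 22.4 against 17.6 CPM in Acomys, 1.28-fold (0.977 to 1.65). Mgst1, a microsomal glutathione transferase, was 4.82-fold higher in Mus (4.64 to 5.01). In both libraries the Krt79-positive cells above the lipid limit had more Pparg, 174 and 290 CPM. The 48 Mus cells with a Pparg UMI had a median Krt79 level of 9.32 per 10000 against 60.9 in the 280 without. With a Krt79 minimum of 20 per 10000, 0 of 14 sebocyte genes compared were higher and 6 lower in Mus. In Mus, the sebocyte genes that were raised thus lay with cells of low Krt79.

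Within the Krt79-positive follicle cells, those with more Krt79 also had more of its companions. The cells of each library were ordered by Krt79 per 10000 and cut into 3 equal parts of 109 or 110 cells in Mus and 181 in Acomys; Krt79 is part of the rule, so this is a description. In Mus, Krt17 stood at 358, 3019 and 16221 CPM from the lowest to the highest part, Defb6 at 1323, 14596 and 31309 CPM, Plet1 at 195, 736 and 1029 CPM and Gata6 at 25.5, 122 and 172 CPM. The lowest Mus part thus had Krt17 near the 323 CPM of all other Mus cells. Epcam, an adhesion molecule, went from 339 to 1021 and 1831 CPM. In the opposite direction, Pparg stood at 102, 7.16 and 1.56 CPM, Cidea, a lipid droplet protein gene, at 444, 61.6 and 29.6 CPM, and Krt5 at 2786, 1784 and 864 CPM.

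In Acomys the lowest part was already rich in Krt17, which stood at 6969, 15567 and 30619 CPM. Cyp2a5 stood at 38.1, 207 and 637 CPM, and a UMI of it was seen in 12.2%, 27.6% and 64.1% of the cells. Klk7 stood at 604, 1022 and 4696 CPM, Il34 at 77.2, 160 and 453 CPM, and Gpx2 at 1255, 1891 and 3713 CPM. The P450 gene Cyp2f2, without a UMI in the Mus cells, went from 40.1 to 126 and 232 CPM. Tac2, which encodes a tachykinin neuropeptide, stood at 14.3, 65.0 and 383 CPM, with at least 50% of its UMIs in 5 cells. Aldh3a1 did not follow Krt79, at 11213, 12589 and 12099 CPM, and neither did Krt10. Plet1 and Gata6, at 1.91 and 3.81 CPM in the lowest and 7.35 and 11.0 CPM in the highest part, had intervals that overlapped.

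**Figure D4:**
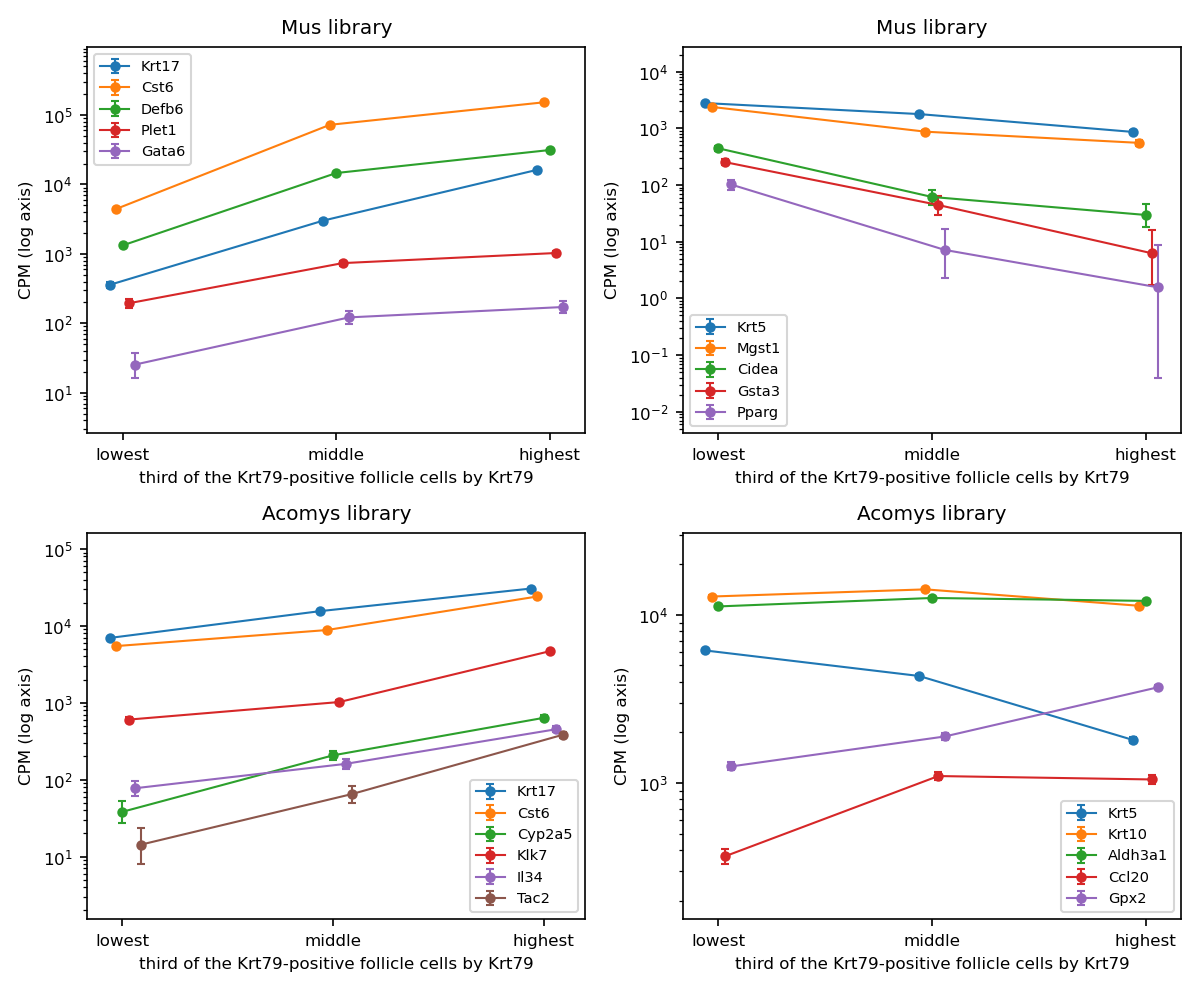
CPM (log axis) of named genes in Krt79-positive follicle cells cut into 3 equal parts by Krt79, Mus above and Acomys below; bars are exact Poisson 95% intervals of the summed counts. On the left are genes higher in the cells of most Krt79, among them Krt17 and Cst6 in both libraries; on the right Pparg and Krt5 are lower there in Mus, Krt5 is lower in Acomys, and Aldh3a1 stays level.

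Genes of the cell cycle were mostly highest in the cells of least Krt79: 18 of 18 in Mus and 15 of 16 in Acomys were highest in the lowest part. They were lower at each step in 18 and 9 of them. The share of all genes highest in the lowest part is not given, so these counts stand without a background. Over all Krt79-positive follicle cells 0 of 16 were 2-fold higher or lower in Mus and 0 of 15 in Acomys, with medians of -0.29 and -0.52. From the lowest to the highest part by Krt79, Top2a, a topoisomerase of dividing cells, stood at 129, 40.1 and 17.2 CPM in Mus and 84.9, 15.2 and 15.6 CPM in Acomys. Cdk1, the mitotic kinase, stood at 99.9, 50.1 and 7.80 CPM in Mus and at 126, 20.3 and 13.8 CPM in Acomys. Both rest on few cells: at least 50% of the UMIs lay in 8 Mus and 8 Acomys cells for Top2a. For Cdk1 these were 8 and 7 cells. With a Krt79 minimum of 20 per 10000, 11 of 16 genes in Mus and 15 of 15 in Acomys were at least 2-fold lower than in other cells. Their median log2 ratios at that minimum were -1.42 and -1.99, beside -0.17 and -0.02 over all genes compared. This minimum, which leaves 214 Mus and 342 Acomys cells, was chosen after the data were seen.

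Because Defb6, Plet1 and Gata6 went with Krt79 in Mus, the sequence before the start of Krt79, Defb6 and Plet1 is given, from RefSeq on GRCm38.p6, the build that mm10 names; these 3 genes all had an entry. Each run is the 250 bases before the annotated start, 5′ to 3′ on the gene's strand. Capitals mark matches on either strand to the GATA motif (an A or T, then GATA, then an A or G) or to TATAAA, which share no overlapping match here. On the same build, Krt17 lies at chr11:100256215-100261029, Cst6 at chr19:5344705-5349574 and Cyp2a5 at chr7:26835339-26843264. Krt79 itself lies at chr15:101929332-101940324 and its run at chr15:101940325-101940574, minus strand; the runs of Defb6 and Plet1 are at chr8:19225228-19225477 and chr9:50494275-50494524, plus strand.
Krt79: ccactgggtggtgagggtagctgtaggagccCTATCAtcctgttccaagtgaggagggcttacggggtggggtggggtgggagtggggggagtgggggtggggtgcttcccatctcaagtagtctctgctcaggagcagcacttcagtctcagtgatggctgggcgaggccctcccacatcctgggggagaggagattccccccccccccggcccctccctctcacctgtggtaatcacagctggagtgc
Defb6: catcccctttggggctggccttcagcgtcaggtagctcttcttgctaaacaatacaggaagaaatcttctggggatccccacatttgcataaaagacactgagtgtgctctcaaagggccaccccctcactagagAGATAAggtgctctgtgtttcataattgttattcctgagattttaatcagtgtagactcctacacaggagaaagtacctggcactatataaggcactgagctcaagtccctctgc
Plet1: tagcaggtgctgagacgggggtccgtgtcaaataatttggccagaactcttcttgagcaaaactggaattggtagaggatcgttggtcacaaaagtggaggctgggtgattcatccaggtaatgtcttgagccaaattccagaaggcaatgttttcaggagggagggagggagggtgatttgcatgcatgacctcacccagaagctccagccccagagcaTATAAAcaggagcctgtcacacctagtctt

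The Krt79 run held 1 match to the GATA motif, which begins 219 bases before the start, and the Defb6 run 1, which begins 115 bases before it; the Plet1 run held none. TATAAA was found in the Plet1 run alone, 30 bases before the start. Of all 32851 RefSeq promoters cut to the same 250 bases, 26.5% held a GATA match and 12.4% held TATAAA. A match describes these letters and is not a binding site.

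Between the libraries, 886 of 6546 genes compared in the Krt79-positive follicle cells, 13.5%, were at least 2-fold higher in Acomys and 2229, 34.1%, at least 2-fold lower, with a median log2 ratio of -0.31. Much of this also held in all other cells. Lgals3, at 4248 CPM in the Mus cells, and Gnas, Dnajc19 and Guca2a had 0 UMIs in the Acomys cells, and at most 0.0817 CPM in the other Acomys cells. Tonsl had 0 and Brk1 1 UMI in the Acomys cells. On the other side, Ugt1a2, a glucuronosyltransferase gene, had 1660 UMIs in the Acomys cells and none in any Mus cell, which makes it at least 404-fold higher from a limit of 3 counts over the Mus cells. Ces2h, an esterase gene, was at least 170-fold higher by the same limit, with 63.7 CPM in the other Acomys cells, and Mrpl53 at least 179-fold with 231 CPM there. A symbol in both lists need not count the same transcripts.

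Tac2, Krt75 and Cyp2f2 were higher in Acomys by at least 121-fold, 104-fold and 102-fold, and unlike Mrpl53 they were also raised over other Acomys cells. Tac2 was 18.4-fold (15.7 to 21.8), Krt75, a keratin of the companion layer, 13.8-fold (11.8 to 16.2) and Cyp2f2 6.53-fold (5.72 to 7.45) above them. A UMI was seen in 9.21%, 7.37% and 31.7% of the Acomys cells. For Krt75, 1 cell held 52.3% of the UMIs, so its value is largely that of 1 cell.

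To set aside what the libraries differ by in every cell, the ratio of Acomys to Mus in these cells was divided by the same ratio in all other cells. This relative ratio was at least 4-fold up in 59 of 6597 genes, 0.894%, and at least 4-fold down in 140, 2.12%, with a median log2 value of 0.04. Il34 stood highest by its interval, 15-fold (11.7 to 19.3), and Cyp2a5 at 21.1-fold (7.04 to 63.0). Popdc3 followed at 8.91-fold, and Clca2, of the calcium-activated chloride channel regulator family, at 7.40-fold (5.13 to 10.7). Nsg1, Sparcl1, Nlrp10 and Tubb3 complete the 8, at 20.9-fold, 10.1-fold, 6.11-fold and 6.49-fold; Nsg1 rested on 2 Acomys UMIs, and Sparcl1 and Tubb3 on 3 and 10 Mus UMIs. The Lor-rich Mus cell held 23 of the 46 Mus UMIs of Nlrp10, whose Mus ratio to other cells was 0.604 with it and 0.306 without it.

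In the other direction, Atp1b1, the beta subunit of the sodium pump, stood lowest. It was at 86.8 against 4.22 CPM in Mus and 3.84 against 10.8 CPM in Acomys, a relative ratio 55.6-fold down (30.6 to 101). Klk6, a kallikrein protease gene, was 35.1-fold down (24.9 to 49.4), with at least 50% of its 274 Mus UMIs in 2 cells, and Gdpd1, a lysophospholipase D gene, 23.0-fold down (16.9 to 31.3). In Mus, Atp1b1 and Gdpd1 stood at 12.8 and 6.38 CPM in the lowest and 158 and 136 CPM in the highest part by Krt79. Avpr1a, the vasopressin receptor gene, and Pkib were 29.7-fold and 46.7-fold down, on 7 and 2 Acomys UMIs. S100a8 was 15.5-fold down (11.9 to 20.3), with at least 50% of its 87 Mus UMIs in 3 cells. Psors1c2 and Crct1, at 30.1-fold and 14.2-fold down, rested on the Lor-rich Mus cell described above: without it their Mus levels were 2.32-fold and 1.26-fold below those of other cells.

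Among genes whose symbol only the Mus list holds, Defb6 led, and Fam26e followed at 59.1-fold (40.1 to 88.6), 38.6 against 0.653 CPM. Stra6, the receptor that takes up retinol from its carrier in blood, was 5.67-fold higher (4.55 to 7.01). Calml3, a calmodulin-like protein of epithelia, was at 879 against 230 CPM, 3.81-fold (3.64 to 4), with a UMI in 81.7% of the cells. BC021614, Pinlyp, Teddm3 and Fam132a were 6.99-fold, 4.43-fold, 4.38-fold and 3.61-fold higher. By Krt79, Pinlyp went from 90.4 to 387 and 1020 CPM and Teddm3 from 75.5 to 368 and 1047 CPM, whereas Fam132a was highest in the cells of least Krt79, at 627, 468 and 363 CPM.

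Of the keratinocyte transcription factors, 6 of 23 were higher and 2 lower in Mus, and 1 of 18, Sox9, was higher and 2 lower in Acomys, beside 4.34% higher and 3.81% lower over all genes in Mus and 2.0% and 3.28% in Acomys. Elf5 was 34.1-fold higher in Mus (22.5 to 52.0), at 24.6 CPM, and had 2 UMIs in Acomys. Cebpb, a factor of differentiation, was 3.46-fold higher in Mus (3.19 to 3.74) and 1.58-fold in Acomys (1.53 to 1.63). Id3, an inhibitor of some other transcription factors, was lower in both, 3.37-fold and 2.67-fold. The tight junction gene Cldn3 was 23.6-fold higher in Mus (18.0 to 30.9) and 1.66-fold in Acomys (1.19 to 2.26). Of the Notch and Wnt genes, 1 of 17 was higher and 4 lower in Mus and 0 of 11 higher and 4 lower in Acomys, beside the same shares; the Wnt receptor gene Fzd7 was the one higher, 5.92-fold (4.71 to 7.37).

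Markers of other cell types were low. Summed endothelial markers stood at 21.9 CPM in the Mus and 55.7 CPM in the Acomys Krt79-positive follicle cells, against 71.7 and 63.0 CPM in all other cells. Immune markers stood at 40.4 and 43.2 CPM, fibroblast markers at 101 and 122 CPM and melanocyte markers at 2.63 and 23.4 CPM, each below the sum in all other cells of the library, which was 58.8 and 62.8 CPM, 282 and 260 CPM and 4.30 and 47.5 CPM. Few of these markers could be compared: 2 endothelial and 5 fibroblast genes in Mus, and 2 endothelial, 1 immune, 2 fibroblast and 2 melanocyte genes in Acomys. Of them 0 were at least 2-fold higher in either library, beside 4.34% of all genes in Mus and 2.0% in Acomys. With so few genes this count says little. At 0 UMIs were Cdh5, Cd3e, Pdgfrb, Tyrp1 and Tyr in the Mus cells and Tek, Laptm5, Pdgfra, Pdgfrb and Dpt in the Acomys cells. Of the inner root sheath and hair shaft keratins 0 could be compared in Mus, and in Acomys 0 of 7 were higher and 5 lower, median log2 ratio -1.27. Krt25 stood at 69.8 against 397 CPM there, with 93 of its 218 UMIs in 1 cell, and Krt28 and Krt73 were 1.58-fold and 1.15-fold higher. Of the Krt28 UMIs 58 of 65, and of the Krt73 UMIs 119 of 130, lay in 1 cell, so these ratios are largely those of 1 cell.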

How the data were processed

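Ear skin was dissociated into cells and sequenced with Chromium 10x chemistry as 1 Mus and 1 Acomys library. The deposited matrices hold raw counts, whole-number UMI counts per gene and barcode, made by the authors with Cell Ranger 2.2.0; the submitters' processing notes name mm10, and for Acomys no genome is named there. Matrices were unfiltered, so barcodes above a UMI minimum shared by both libraries, with at least 200 genes and in Mus at most 20% mitochondrial UMIs, were kept as cells; the shallowest had 2872 UMIs in Mus and 2875 in Acomys. Genes were joined by symbol, case ignored, over 15710 shared symbols.

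UMIs were summed over a class of cells and scaled to 1000000 (CPM). Ratios carry exact 95% intervals of the counts and were compared where the mean of both classes was at least 10 CPM; log2 ratios use a prior of 0.5 counts. A gene was called at 2-fold, or at 4-fold for the relative ratio. A limit of 3 counts stands in for 0. With 1 library a species no test was possible. The basal reference cells had at least 10 Krt5 UMIs per 10000 and no more Krt1 and Krt10 than Krt5 and Krt15, a rule added after seeing the data because the first rule left 0 Acomys cells. Doublets were scored against simulated pairs, and the top 0.8% per 1000 cells were marked and kept. Named genes are those of highest and lowest ratio by the nearest interval bound (15 higher and 10 lower in both libraries, 8 and 8 relative, 6 and 6 between libraries, 8 of the Mus list alone), with the highest and most changed members of each list; a few of these are not reported here. The cells and the lists were chosen with earlier results of these data known. Computation used Python 3.11.15, NumPy 2.4.6, SciPy 1.17.1, pandas 2.3.3, scikit-learn 1.9.0 and Matplotlib 3.10.9. The ratios and intervals were tested on simulated counts. That simulation had no spread between cells, so it cannot show how the intervals hold where few cells carry a gene.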

Additional observations from a re-analysis of the deposited data

Results flagged for a closer look

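Only the named genes and the genes of the lists were searched for opposite directions, and some named genes were picked for extreme relative ratios. In 9 of the genes searched, the Krt79-positive follicle cells lay at least 2-fold above all other cells in 1 library. In the other library they lay at least 2-fold below them, and both intervals left out a ratio of 1. The count is thus not a share of all genes compared. The difference was not tested, since each species has 1 library. On the log2 scale of the relative ratio, Acomys over Mus, Il34 stood at 3.91 and Clca2 at 2.89, both higher in Acomys. Lower in Acomys were S100a8 at -3.96, Crct1 at -3.83, Il18 at -3.26, Atp6v1c2 at -3.01, Cidea at -2.48, Cdsn at -2.34 and Asprv1 at -2.22. Atp6v1c2, a subunit of the proton pump known from the sebaceous duct, was 3.35-fold above other cells in Mus, at 134 against 40.1 CPM, and at 21.5 against 51.8 CPM in Acomys. Cidea was at 211 against 76.1 CPM in Mus and 18.6 against 37.7 CPM in Acomys. Its Mus level lay in the cells of least Krt79, at 444, 61.6 and 29.6 CPM over the 3 parts by Krt79, so the upper parts were below other Mus cells.

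Leaving out the single Mus cell rich in Lor, an alternative chosen after seeing the data, took 4 of the 9 out of this set. Its Mus ratio became 0.642 for Asprv1, 0.795 for Crct1, 0.327 for Il18 and 1.94 for Cdsn. Il34, Clca2, S100a8, Atp6v1c2 and Cidea stayed on opposite sides.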

How the results depend on the processing

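No paired analysis was possible because each species has 1 library. The share of cells meeting the rule was 8.91% in Acomys with a minimum of 1000 UMIs, 13.5% with a higher minimum that kept 3637 cells, and 14.2% with at least 3 Krt79 UMIs. It was 3.41% in Mus and 9.53% in Acomys with Krt79 at 10 per 10000 or more, 3.45% in Mus with the lipid limit at 5, 5.41% and 13.3% with no lipid limit, and 2.97% and 7.88% with thinned cells. It was 2.79% and 7.15% with Krt79 at 20 per 10000 or more, an alternative chosen after seeing the data.

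Krt79 at 10 or more gave 405 genes lower in Mus and 94 lower in both. No lipid limit gave 479 higher and 410 lower in Mus and 84 higher and 73 lower in both. Thinned cells gave 725 lower in Mus, 171 higher and 383 lower in Acomys, 149 lower in both and 207 relatively higher, with the Mus median over all genes at -0.15. CPM over all genes gave 37 relatively higher, and subtracted free RNA 94. Means over cells gave 404 lower in Mus and 80 in both, and comparison cells without a Krt79 UMI 70 lower in both. Krt79 at 20 or more gave 559 lower in Mus, 305 in Acomys, 141 in both and 109 relatively higher, with the Mus median at -0.17. A mean of at least 50 CPM in place of 10 gave 113 higher and 94 lower in Mus, 51 and 68 in Acomys, 19 and 21 in both, 367 and 548 between libraries and 10 and 38 relatively. A mean of at least 1 CPM gave 708 and 710, 397 and 560, 92 and 131, 1521 and 4229, and 325 and 435. These filters change how many genes are compared; for the other settings the cause was not tested.

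Named genes were checked under every setting (51 in Mus, 50 in Acomys). A change of sign was counted only for ratios of at least 2-fold, up or down, in the main setting. Log2 ratios that changed sign in this way were Psors1c2 at -1.13 and Crct1 at -0.12 in Mus with Krt79 at 10 or more. At 20 or more they were Gsta3 at -0.35 and Psors1c2 at -0.76 in Mus. With no lipid limit they were Cyp2f2 at 0.84 in Mus and Avpr1a at 2.36 and Tonsl at 1.09 in Acomys. Mrpl53 stood at 1.44 in Mus with thinned cells, and Psors1c2 at -1.18 and Crct1 at -0.33 without the Lor-rich cell. In the main setting Cyp2f2 and Mrpl53 had 0 UMIs in the Mus and Tonsl 0 in the Acomys Krt79-positive follicle cells. Their main log2 ratios thus rest on the prior of 0.5 counts, and their changes of sign say little. Depth limits genes below about 10 CPM, and 1 library a species gives no error between animals.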

Other observations

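Ordering the Krt79-positive follicle cells by Krt5 and Krt15 together, in place of Krt79, gave another arrangement. This order was chosen after seeing the data and is a description. In the Mus cells Krt15 had 17630 UMIs and Krt5 4420, so there the order is mostly that of Krt15. In the Acomys cells they had 14889 and 12665 UMIs. Krt15 also stands on the list of lower follicle and bulge genes. From the lowest to the highest of the 3 equal parts, Plet1 stood at 365, 569.9 and 969 CPM in Mus, Gata6 at 51.1, 105 and 153 CPM, and Lrig1 at 25.6, 50.3 and 87.9 CPM. Sox9 was higher in each step of this order in both libraries, from 131 to 194 and 288 CPM in Mus and from 164 to 195 and 269.8 CPM in Acomys. Krt17 went the other way, at 8588, 4183 and 2861 CPM in Mus and 26423, 12611 and 12566 CPM in Acomys. In Mus, Plet1 and Krt17 thus went together over Krt79 and parted over the sum of Krt5 and Krt15.

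Slpi and Tac2 lay with cells of little Krt5 and Krt15 in this order. Slpi stood at 358, 40.5 and 35.2 CPM in Mus and 219, 102 and 9.47 CPM in Acomys. Tac2 stood at 369, 36.3 and 15.4 CPM in Acomys. Both rest on few cells.

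Of the 188 Acomys cells with a Cyp2a5 UMI, 18.6% (13.3 to 24.9) had Tac2, against 4.23% (2.38 to 6.87) of the 355 without, at median depths of 8296 and 7655 UMIs. Their median Krt79 level was 96.0 per 10000 against 19.6. Il34 and Ccl20 shared cells less clearly: 51.3% (45.2 to 57.4) of the 273 Acomys cells with Il34 had Ccl20, against 40% (34.1 to 46.1) of the 270 without.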
